A study of Schizosaccharomyces pombe with 4 samples.

Results

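The transcripts described here are the intergenic long non-coding RNAs (lncRNAs) of fission yeast, *Schizosaccharomyces pombe*, that share no base with another annotated feature and were measurable in total RNA. They were taken as all features with an SPNCRNA identifier whose interval overlapped no other feature on either strand and which had 10 or more counts in both total RNA libraries. Of 12684 features, 7213 carried such an identifier, 565 of these overlapped nothing, and 89 of the 565 reached the threshold. SPNCRNA.98 and SPNCRNA.214 were to be set aside, but both overlap other features and were not among them. The rule used the counts in total RNA, which are also the denominator of every poly(A)+ over total ratio. Counts of calls and medians over these 89 lncRNAs are therefore descriptions. At the threshold, SPNCRNA.4992 entered with 10 and 14 total RNA counts, SPNCRNA.3711 with 15 and 10, and SPNCRNA.451 with 10 and 12. Just below it, SPNCRNA.1130 was left out with 9 and 10 counts, SPNCRNA.1400 with 9 and 23, and SPNCRNA.1499 with 13 and 9.

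The libraries came from vegetative haploid *h-* cells grown in minimal medium, with the genotype *leu1-32*, *pat1-L95G::kanR*. This strain, called wild type in the labels, therefore carries the analogue-sensitive allele of the Pat1 kinase in both fractions. Poly(A)+ RNA, selected on oligo(dT) beads, and total RNA, depleted of ribosomal RNA, were each sequenced in 2 biological replicates. The fractions were made with different kits and read on different instruments, and these differences cannot be told apart from the fraction. The poly(A)+ libraries held 25530272 and 30363472 counts, and the total RNA libraries 30650533 and 29055323. Levels are given as RPKM, read counts divided by transcript length and by library size, with edgeR's trimmed mean (TMM) scaling of the libraries. The M-cell pheromone gene *mfm1* had 1772 and 1378 RPKM in poly(A)+ RNA against 3351 and 3529 in total RNA, while the P-cell gene *map2* stayed below 1 RPKM in all 4 libraries. The other genes listed as P-cell markers, *map3* and *sxa1*, were present at 6.09 to 352.4 RPKM, so that list did not separate the mating types here. The 5 meiotic genes found reached 4.45 RPKM at most, and *act1*, *adh1*, *tdh1* and *rpl301* were at 488.8 RPKM or more.

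Most fission yeast mRNAs, and many lncRNAs, are cleaved and given a poly(A) tail, for which the hexamer AAUAAA near the 3′ end is the best known signal. Many lncRNAs are short-lived, because the nuclear exosome degrades them. One well studied route begins with Mmi1, an RNA-binding protein that recognizes UNAAAC motifs and directs meiotic mRNAs and some lncRNAs to the exosome in vegetative cells. Small nucleolar RNAs (snoRNAs) guide chemical modification of ribosomal and spliceosomal RNA, and their mature forms normally end without a poly(A) tail. A ratio of poly(A)+ over total RNA sets one population of molecules against the other. In bulk RNA, fewer cells with a transcript and less of it per cell cannot be told apart.

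The sequences below belong to the lncRNAs at the ends of the range and to the named ones. All were read from RefSeq's *S. pombe* genome, assembly ASM294v3, whose starts and ends equal those in the count tables for 89 of 89. Each is written 5′ to 3′ on the transcribed strand, in DNA letters. SPNCRNA.942, the most abundant in total RNA, is shown over its whole interval (chrI:3851024-3851310, plus strand), with AATAAA in capitals. *sno530* is also whole (chrI:1966483-1966635, minus strand), with its single TNAAAC in capitals.
SPNCRNA.942: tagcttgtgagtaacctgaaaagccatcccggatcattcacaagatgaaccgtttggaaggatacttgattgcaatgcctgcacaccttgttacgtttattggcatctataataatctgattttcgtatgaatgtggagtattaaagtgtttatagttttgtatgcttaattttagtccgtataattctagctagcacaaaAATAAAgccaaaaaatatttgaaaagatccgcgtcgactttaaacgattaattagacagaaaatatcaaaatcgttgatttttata
sno530: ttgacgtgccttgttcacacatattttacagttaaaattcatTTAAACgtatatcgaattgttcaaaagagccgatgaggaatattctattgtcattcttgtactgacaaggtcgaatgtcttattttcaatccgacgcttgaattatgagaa

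Further stretches show motifs inside longer transcripts. In *snoR61*, the stretch at chrII:3874673-3874768 (minus strand) lies in the annotated intron and carries TGATGA and CTGA in capitals, the letters of boxes C and D of a snoRNA. In *nam3* (chrII:4465867-4465936, minus strand) and SPNCRNA.388 (chrII:2116702-2116821, plus strand), the capitals mark TNAAAC.
snoR61: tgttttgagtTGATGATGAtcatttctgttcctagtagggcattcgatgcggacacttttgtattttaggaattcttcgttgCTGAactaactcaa
nam3: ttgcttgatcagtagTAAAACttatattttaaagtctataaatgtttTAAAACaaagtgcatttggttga
SPNCRNA.388: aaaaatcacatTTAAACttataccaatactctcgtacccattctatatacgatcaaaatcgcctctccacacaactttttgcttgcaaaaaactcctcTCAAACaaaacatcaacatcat

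The 89 lncRNAs were low in both fractions. Their median level was 1.84 and 1.79 RPKM in the poly(A)+ libraries, against 2.35 and 2.65 RPKM in the total RNA libraries. With library totals alone as the scaling this order turned, to 2.26 and 2.45 RPKM in poly(A)+ RNA against 1.82 and 2.04 RPKM in total RNA. The median protein-coding gene had 16.5 and 16.7 RPKM in poly(A)+ RNA against 32.6 and 33.7 RPKM in total RNA. In mean RPKM over a fraction, 1 lncRNA exceeded 100 in poly(A)+ RNA and 2 did so in total RNA, while 32 were under 1 in poly(A)+ RNA against 16 in total RNA. In poly(A)+ RNA, 4 and 3 of them had no count in replicates 1 and 2, whereas the rule left none at 0 in total RNA. The order of levels was only loosely shared by the fractions (Spearman's rho 0.319 over 89 lncRNAs, a description).

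A single transcript set much of the total in each fraction, and it was not the same one. The 89 lncRNAs held 0.118% (95% Wilson interval 0.117 to 0.120) and 0.0546% (0.0538 to 0.0554) of the counts in the poly(A)+ libraries. In the total RNA libraries they held 0.0461% (0.0454 to 0.0469) and 0.0466% (0.0458 to 0.0474). These intervals cover counting error only. Both poly(A)+ shares lay above both total RNA shares, but 2 libraries against 2 cannot give an exact two-sided permutation p under 0.3333, which is the value here. The mean share in poly(A)+ RNA was 1.86 times that in total RNA, and 1.18 times without poly(A)+ replicate 1. SPNCRNA.2467 took 75.5% (75.1 to 76.0) and 41.6% (40.9 to 42.4) of the lncRNA counts in poly(A)+ RNA. SPNCRNA.942 took 35.8% (35.001 to 36.6) and 32.9% (32.1 to 33.7) of those in total RNA. Without these 2 transcripts, a choice made after seeing the data, the shares were 0.0288% and 0.0318% in poly(A)+ RNA against 0.0296% and 0.0312% in total RNA, and the libraries of the fractions overlapped (exact two-sided permutation p = 1).

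**Figure D1:**
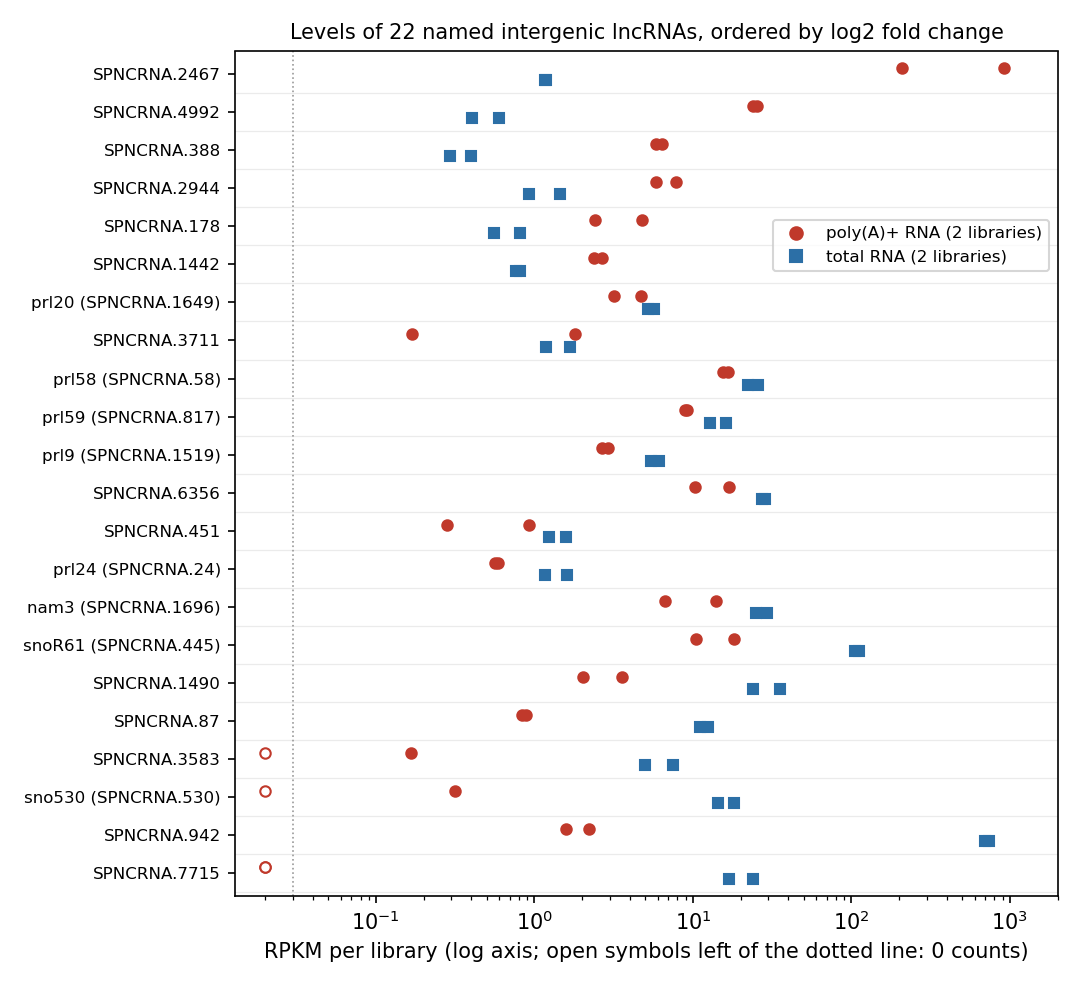
RPKM in each library (log axis) for the 22 lncRNAs named by the rule, one per line, with poly(A)+ libraries as circles and total RNA libraries as squares; open symbols left of the dotted line have 0 counts. SPNCRNA.2467 reached 916.2 and 209.4 RPKM in poly(A)+ RNA against 1.17 and 1.18 in total RNA, and SPNCRNA.942 had 2.22 and 1.60 RPKM in poly(A)+ RNA against 743.1 and 694.9 in total RNA.

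With edgeR's quasi-likelihood test over all 11234 features tested, 10 lncRNAs were higher and 30 lower in poly(A)+ RNA at an adjusted p under 0.05, and 48 were not called. SPNCRNA.649, with 2 and 8 poly(A)+ counts against 10 and 14 total RNA counts, was too low to be tested. Over all features, 49.7% were called higher and 35.5% lower. Leaving out either total RNA replicate lowered the count of lncRNAs called lower to 18. Both poly(A)+ libraries lay above both total RNA libraries for 16 lncRNAs (52.6% of all features) and below them for 49 (40.8% of all features). Their median log2 fold change, poly(A)+ over total, was -0.63, with quartiles of -1.39 and 0.00. Among lncRNAs with a poly(A)+ count it ranged from -8.57 to 8.90, and SPNCRNA.7715 and SPNCRNA.4302, which had none, allow only bounds. The median over all features tested was 0.84, and over protein-coding genes it was -0.93.

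Relative to the median protein-coding gene, the median lncRNA was thus 0.30 higher on the log2 scale, with 52 lncRNAs above it and 36 below. Of the 476 lncRNAs that overlapped nothing but fell short of the count threshold, 102 passed the filter on low counts. Having few total RNA counts, they passed it largely through poly(A)+ RNA, so that their fold changes are not summarized. Annotated lncRNAs that overlap another feature had a median of 4.61, with 5874 of 6648 tested. No threshold on total RNA was set for them, and their median level was 10.5 RPKM in poly(A)+ RNA against 0.60 in total RNA. The lncRNAs described here had to reach a threshold in total RNA, so the medians of these groups cannot be compared. The authors describe the total RNA libraries as directional and do not say so of the poly(A)+ libraries. The strand setting used for counting is not given in the sources used here. The part of either in the value of 4.61 was not tested.

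The split between higher and lower depended on how the fractions were scaled to each other. With DESeq2's size factors in edgeR, 6 were higher and 43 lower. Library totals alone gave 15 and 14, TMM factors from protein-coding genes 17 and 14, and a fit restricted to features that overlap nothing 12 and 14. These scalings put the median protein-coding gene at -1.43, -0.18, 0.04 and -0.17. Under all 5 scalings 6 lncRNAs were called higher and 14 lower, and none was called in opposite directions. The median relative to protein-coding genes stayed between 0.26 and 0.30.

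**Figure D2:**
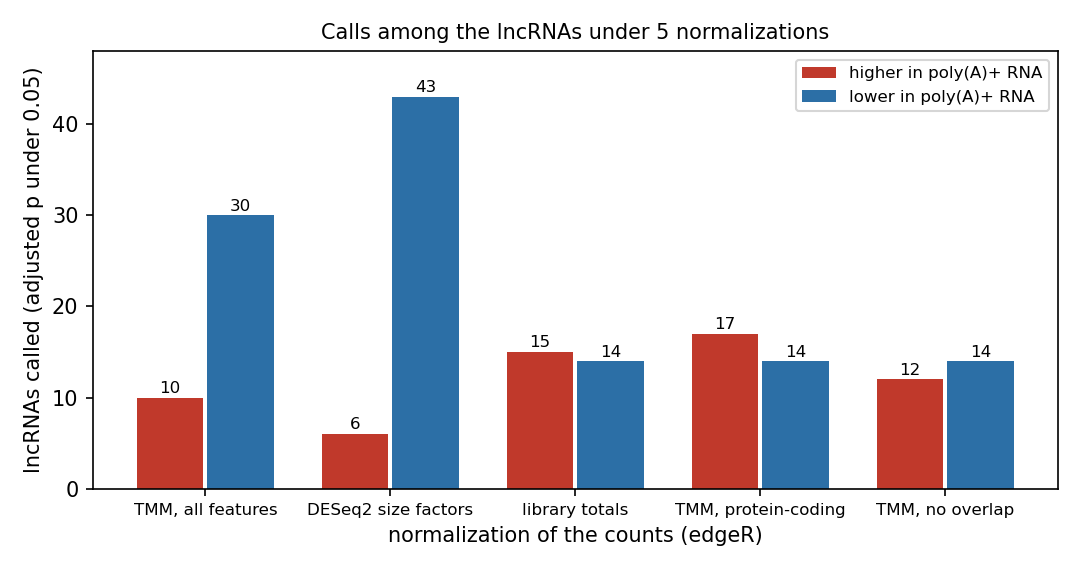
Number of lncRNAs called higher and lower in poly(A)+ RNA (edgeR, adjusted p under 0.05) under 5 normalizations, from TMM over all features at the left to TMM within features that overlap nothing at the right. Called lower were 14 lncRNAs under 3 of the normalizations, 30 under TMM over all features and 43 under DESeq2's size factors.

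The 6 lncRNAs called higher under all scalings were SPNCRNA.2467, SPNCRNA.4992, SPNCRNA.388, SPNCRNA.2944, SPNCRNA.178 and SPNCRNA.1442, all annotated as non-coding RNAs with no function given. SPNCRNA.1442 was not called by DESeq2 (adjusted p = 0.0646). SPNCRNA.2467 (chrI:1076741-1077534, plus strand) had 22810 and 6901 counts in poly(A)+ RNA against 22 and 21 in total RNA. Its log2 fold change of 8.90 ± 0.90 (SE, edgeR adjusted p = 0.000169) rested on poly(A)+ replicates at 916.2 and 209.4 RPKM, and leaving out each library in turn gave 7.55 to 9.58. It starts 47 nucleotides from *plb1*, which codes for a phospholipase B and is transcribed the other way. *plb1* had 1509 and 494 RPKM in poly(A)+ RNA against 978.2 and 962.4 in total RNA. Both neighbours were thus higher in poly(A)+ replicate 1 than in replicate 2, and the part of one in the other's counts was not tested. The gap between them is shown because both transcripts start at its edges, in capitals and followed by the first 100 bases of SPNCRNA.2467 (chrI:1076694-1076840, plus strand).
SPNCRNA.2467: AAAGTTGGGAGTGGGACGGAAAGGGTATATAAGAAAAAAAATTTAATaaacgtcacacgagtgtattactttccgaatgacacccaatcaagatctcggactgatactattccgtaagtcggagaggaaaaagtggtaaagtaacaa

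SPNCRNA.4992 (chrII:1045805-1046848, plus strand) had 833 and 1040 counts in poly(A)+ RNA against 10 and 14 in total RNA, which gave a log2 fold change of 5.62 ± 0.27 (edgeR adjusted p = 1.03e-05). Its poly(A)+ replicates, at 25.4 and 24.0 RPKM, were close to each other and far above the 0.404 and 0.6002 RPKM of total RNA. It starts 212 nucleotides from *ubi4*, the polyubiquitin gene, which is transcribed the other way and had 188.0 and 116.3 RPKM in poly(A)+ RNA against 35.5 and 32.3 in total RNA. *ubi4* was thus also higher in poly(A)+ RNA (log2 fold change 2.17 ± 0.24, edgeR adjusted p = 0.000271), unlike the median protein-coding gene. Downstream, SPNCRNA.4993 on the other strand reached 64.5 and 55.3 RPKM in poly(A)+ RNA against 0.280 and 0.372 in total RNA. The lncRNA and both of its neighbours were therefore higher in poly(A)+ RNA. For SPNCRNA.4993 this direction is common, since 5185 of the 6064 annotated lncRNAs tested were called higher.

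SPNCRNA.388 (chrII:2115592-2117167, plus strand) had 314 and 382 counts in poly(A)+ RNA against 11 and 14 in total RNA, and a log2 fold change of 4.13 ± 0.33 (edgeR adjusted p = 5.96e-05). It begins 564 nucleotides after *mat1-Mc*, a mating type gene on the same strand that was itself at 0.584 and 0.353 RPKM in poly(A)+ RNA against 0.463 and 0.410 in total RNA. It holds 7 copies of TNAAAC, of which a pair is in the stretch shown above. Its other neighbour, SPBC23G7.10c, did not pass the test (log2 fold change -0.24 ± 0.25). *mat1-Mc* was too low to be tested, so only SPBC23G7.10c gave a result to set beside that of SPNCRNA.388. Near-identical copies elsewhere in the genome were searched only for the lncRNAs, so the low counts of *mat1-Mc* were not checked for this.

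The other lncRNAs called higher under every scaling had folds of 3.15 to 5.77. SPNCRNA.2944 had 142 and 251 counts in poly(A)+ RNA against 17 and 25 in total RNA (log2 fold change 2.53 ± 0.38). SPNCRNA.178 had 91 and 241 counts in poly(A)+ RNA against 16 and 22 in total RNA (2.40 ± 0.49). It lies 126 nucleotides from the uracil permease gene *fur4*, whose own log2 fold change was -0.67 ± 0.13. SPNCRNA.1442 had 73 and 86 counts in poly(A)+ RNA against 17 and 15 in total RNA (1.66 ± 0.38). It ends 457 nucleotides before SPNCRNA.1443 on the same strand, which went the other way with 583 and 757 counts in poly(A)+ RNA against 1218 and 1277 in total RNA (-1.56 ± 0.15). The poly(A)+ libraries lay above the total RNA libraries for each of the first 3 and below them for SPNCRNA.1443.

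The calls of SPNCRNA.1133, SPNCRNA.1550, SPNCRNA.519 and SPNCRNA.2189, with log2 fold changes of 0.92 to 1.44, were absent under DESeq2's size factors. SPNCRNA.1550, annotated as a possible alternative untranslated region, ends 1 nucleotide before the glycolytic gene *tdh1*. *tdh1* had 3077 and 2345 RPKM in poly(A)+ RNA, where SPNCRNA.1550 averaged 6.30 RPKM. SPNCRNA.1133, with 482 and 588 counts in poly(A)+ RNA against 190 and 169 in total RNA, had the most counts of these 4.

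At the other end, SPNCRNA.942 (sequence above) had 20 and 19 counts in poly(A)+ RNA against 5061 and 4456 in total RNA. At 719 ± 34.1 RPKM (SD, n = 2) in total RNA it ranked first among the 565 lncRNAs that overlap nothing, and its log2 fold change was -8.57 ± 0.21 (edgeR adjusted p = 2.39e-06). The fractions were far apart and the replicates close. It has no function in the annotation. Its upstream neighbour, *ppc89*, which codes for a spindle pole body protein, had a log2 fold change of -1.40 ± 0.17. Downstream, 457 nucleotides away on the other strand, *snr62*, a snoRNA gene, was at 1.72 and 3.26 RPKM in poly(A)+ RNA against 1.71 and 2.42 in total RNA. Neither neighbour approached the level of SPNCRNA.942 in total RNA.

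SPNCRNA.7715 (chrIII:2336146-2336384, minus strand) had no count in either poly(A)+ library against 135 and 90 in total RNA. Against a floor of 3 counts per library, this is at least 57.9-fold lower in poly(A)+ RNA (edgeR adjusted p = 0.000170). SPNCRNA.4302 also had no poly(A)+ count, against 22 and 51 in total RNA, which is at least 19.1-fold lower. SPNCRNA.3583 had 2 and 0 counts in poly(A)+ RNA against 45 and 64 in total RNA, a summed level 86.2-fold lower in poly(A)+ RNA (95% exact counting interval 23.3 to 720.6). These lncRNAs were close to undetected after oligo(dT) selection at this depth. SPNCRNA.3583 ends 295 nucleotides before SPRRNA.15, an rRNA gene on the same strand with 0 and 0.150 RPKM in poly(A)+ RNA against 13.4 and 5.004 in total RNA.

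SPNCRNA.87 had 10 and 14 counts in poly(A)+ RNA against 100 and 105 in total RNA (log2 fold change -3.74 ± 0.37). Its neighbour on the same strand, SPNCRNA.219, had 24 and 34 counts in poly(A)+ RNA against 30 and 20 in total RNA, and was not called (-0.44 ± 0.42). SPNCRNA.1490 had 18 and 42 counts in poly(A)+ RNA against 240 and 152 in total RNA (-3.39 ± 0.41). The libraries of the fractions did not overlap for SPNCRNA.87 or SPNCRNA.1490. Besides *sno530* and *snoR61*, described next, the remaining lncRNAs called lower under all 5 scalings were SPNCRNA.1032, SPNCRNA.3076, SPNCRNA.4666, SPNCRNA.4900 and SPNCRNA.1443, with log2 fold changes of -3.67 to -1.56, and SPNCRNA.6780, with 0 and 3 counts in poly(A)+ RNA against 18 and 25 in total RNA.

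The annotation calls 3 of the 89 lncRNAs snoRNAs or guide RNAs. *sno530* had 0 and 2 counts in poly(A)+ RNA against 66 and 49 in total RNA, a summed level 90.9-fold lower in poly(A)+ RNA (95% exact counting interval 24.6 to 759.8, edgeR adjusted p = 0.000323). *snoR61* (SPNCRNA.445, chrII:3874254-3874906) had 215 and 492 counts in poly(A)+ RNA against 1640 and 1626 in total RNA (-2.92 ± 0.28, edgeR adjusted p = 0.000132). Both were lower in poly(A)+ RNA, with libraries that did not overlap. RefSeq gives *snoR61* exons of 109 and 208 nucleotides around an intron of 336 nucleotides, and the boxes shown above start at positions 149 and 221 of the transcribed interval. A count over the gene does not separate the exons from the intron. SPNCRNA.1709, annotated as a guide RNA for U2 snRNA, had 7 and 40 counts in poly(A)+ RNA against 15 and 13 in total RNA, and was not called (0.01 ± 0.71). At 116 nucleotides it was the shortest of the 89, and its poly(A)+ libraries lay on both sides of the total RNA ones.

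*nam3* (SPNCRNA.1696, chrII:4464625-4466286, minus strand) is an lncRNA named for its association with Mmi1. It had 348 and 972 counts in poly(A)+ RNA against 982 and 1083 in total RNA, and 6.68 and 14.1 RPKM against 24.9 and 29.2 RPKM. It was lower in poly(A)+ RNA (log2 fold change -1.38 ± 0.35, edgeR adjusted p = 0.0103), with libraries that did not overlap. In RPKM it was among the 6 highest of the 89 in each fraction, although among all 565 that overlap nothing it ranked 17 in poly(A)+ RNA. Leaving out total RNA replicate 2 ended this call (adjusted p = 0.0522), as did 3 of the other scalings (0.205 to 0.330). It carries 4 copies of TNAAAC.

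The *prl* genes were named after poly(A)-bearing RNAs without a long reading frame, yet none of those here was called higher in poly(A)+ RNA. *prl9* had 85 and 123 counts in poly(A)+ RNA against 131 and 138 in total RNA (log2 fold change -1.04 ± 0.27, edgeR adjusted p = 0.0113). *prl24* had 13 and 18 counts in poly(A)+ RNA against 28 and 19 in total RNA (-1.25 ± 0.45, adjusted p = 0.0398). *prl58* had 234 and 287 counts in poly(A)+ RNA against 272 and 222 in total RNA (-0.57 ± 0.21, adjusted p = 0.0438). These 3 were called lower, but relative to the median protein-coding gene *prl58* was 0.36 higher and *prl9* 0.11 lower. Each of the 3 lost its call under library totals alone, under TMM from protein-coding genes and in the fit without overlapping features, and the direction of *prl58* turned in these fits. The call of *prl24* was lost whichever library was left out (adjusted p 0.0864 to 0.240), and so was that of *prl58* (0.0640 to 0.182).

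*prl59* and *prl20*, which is annotated as associated with a retrotransposon repeat, were not called. *prl59* had 129 and 166 counts in poly(A)+ RNA against 136 and 161 in total RNA (log2 fold change -0.67 ± 0.27, adjusted p = 0.0528). *prl20* had 90 and 175 counts in poly(A)+ RNA against 121 and 104 in total RNA (-0.46 ± 0.31, adjusted p = 0.211). For both of them the direction turned under 3 of the scalings, while DESeq2's size factors gave a call of lower (adjusted p = 0.00595 for *prl59* and 0.0317 for *prl20*).

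SPNCRNA.6356 was also among the 6 highest of the 89 in each fraction, and ranked 12 among the 565 in poly(A)+ RNA. It had 16.8 and 10.3 RPKM in poly(A)+ RNA against 27.1 and 28.7 in total RNA (log2 fold change -1.05 ± 0.28, edgeR adjusted p = 0.0125). Its upstream neighbour on the same strand, SPNCRNA.6357, had 5573 and 4869 RPKM in poly(A)+ RNA against 17.9 and 12.5 in total RNA. SPNCRNA.6357 was higher in poly(A)+ RNA like most annotated lncRNAs (5185 of 6064 tested). The neighbours, 186 nucleotides apart, thus differed in opposite directions, although the call of SPNCRNA.6356 was lost without total RNA replicate 2 (adjusted p = 0.0564) and under 3 of the scalings (0.294 to 0.824). At the threshold, SPNCRNA.451 (3 and 13 counts in poly(A)+ RNA against 10 and 12) and SPNCRNA.3711 (2 and 28 against 15 and 10) were not called. Without poly(A)+ replicate 2 both were called lower (adjusted p = 0.0458 for SPNCRNA.451 and 0.0211 for SPNCRNA.3711).

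**Figure D3:**
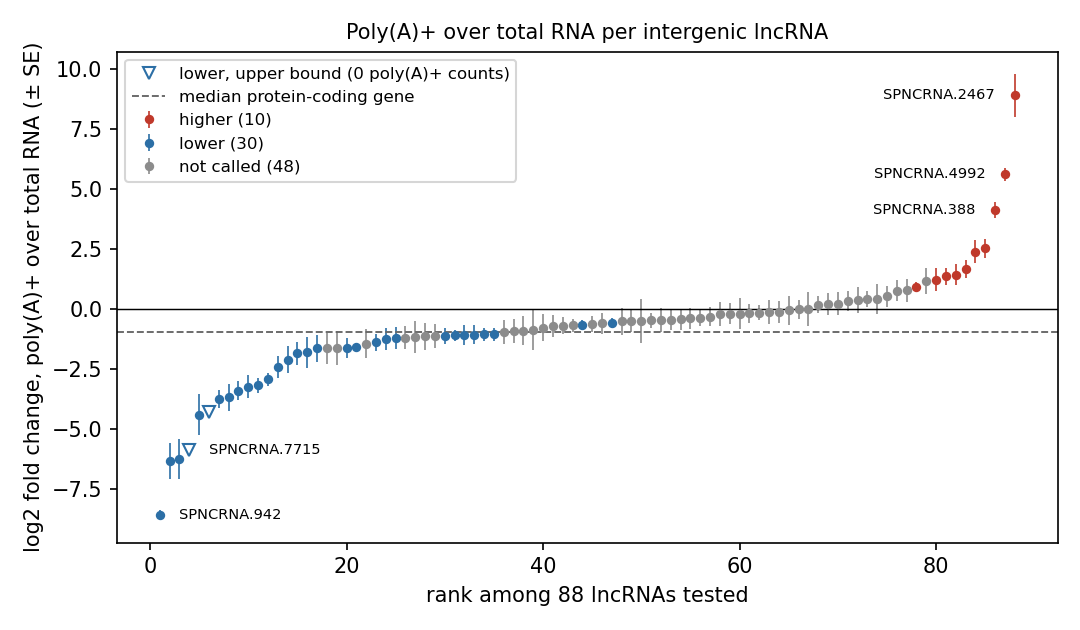
Log2 fold change, poly(A)+ over total RNA, with its SE for the 88 lncRNAs tested, in rank order. Open triangles are upper bounds for the 2 lncRNAs with no poly(A)+ count, against a floor of 3 counts per library. The 10 called higher lie above 0 and the 30 called lower below it, and the dashed line marks the median protein-coding gene at -0.93.

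The middle of the range was flat. Of the 88 lncRNAs tested, 43 had a log2 fold change between -1 and 1, whereas 3 were above 3 and 11 below -3. Replicates of single lncRNAs also spread more in poly(A)+ than in total RNA. Among those with at least 10 counts in both libraries of a fraction, the median fold between replicates was 1.47 in poly(A)+ RNA (71 lncRNAs, 12 of them over 2-fold) and 1.27 in total RNA (89 lncRNAs, 6 over 2-fold). For protein-coding genes it was 1.16 in poly(A)+ RNA against 1.06 in total RNA. An lncRNA that was not called may therefore still differ, also by more than this median spread. The log2 fold changes of the 48 not called ran from -1.62 to 1.17.

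Among the lncRNAs that reached the threshold in total RNA, shorter ones had lower ratios. Of the 20 lncRNAs under 400 nucleotides, 0 were called higher and 12 lower by edgeR, with a median log2 fold change of -2.53, and 0 were higher at an unadjusted p under 0.05 or with DESeq2. Of 37 tested from 400 to under 800 nucleotides, 3 were higher and 11 lower (median -0.57), and of 31 with 800 or more, 7 were higher and 7 lower (median -0.19). Across the 88, Spearman's rho between length and log2 fold change was 0.431, and between GC content and log2 fold change 0.315. Between the mean level in total RNA and log2 fold change it was -0.498, but total RNA is the denominator of the ratio and was used by the rule. The lncRNAs share libraries and are not replicates, so no test was made. With TMM factors from protein-coding genes the calls were 0 higher and 10 lower in the shortest class, 7 and 3 in the middle one, and 10 and 1 in the longest.

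A threshold in counts asks for a higher RPKM of a shorter transcript. The lowest mean level in total RNA was 1.41 RPKM under 400 nucleotides and 0.346 RPKM at 800 or more. The length classes thus also differ in the level at which they entered. The threshold left out short lncRNAs with many poly(A)+ counts, such as SPNCRNA.5104 (319 nucleotides) and SPNCRNA.4148 (256 nucleotides). Longer ones, such as SPNCRNA.6754 (927 nucleotides), were left out too. The absence of higher calls under 400 nucleotides therefore holds only for lncRNAs that reached the threshold. In poly(A)+ RNA, which the rule did not use, the median level was 0.924 RPKM in the shortest class, 1.78 in the middle class and 2.51 in the longest. The kits and read lengths of the fractions also differ, and their part in this order was not tested.

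**Figure D4:**
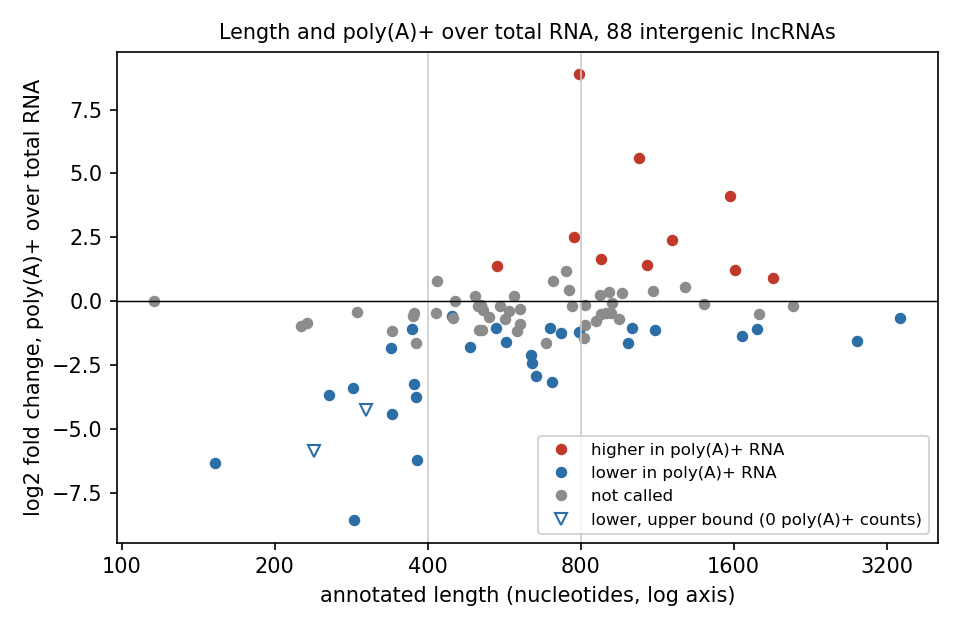
Annotated length (nucleotides, log axis) against log2 fold change, poly(A)+ over total RNA, for the 88 lncRNAs tested, coloured by edgeR's call; vertical lines mark 400 and 800 nucleotides. Open triangles are upper bounds for the 2 lncRNAs with no poly(A)+ count. Among these 88, none under 400 nucleotides was called higher, and those at or above 800 were called 7 times in each direction.

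The 89 lncRNAs lie on chromosomes I (38), II (37) and III (14), and measure 116 to 3404 nucleotides with a median of 638. Their GC content had a median of 32.9%, against 36.4% for all annotated lncRNAs. The median distance to the nearest feature was 126 nucleotides, and 12 lay 300 or more from any. These 12 had a median log2 fold change of -0.65 (1 higher, 5 lower), and the 76 others tested one of -0.63. The medians of the isolated and the other lncRNAs were thus nearly equal. Of 10 with a tRNA or rRNA gene next to them, 9 were tested by edgeR, with 0 higher (0 also at an unadjusted p under 0.05 and with DESeq2) and 5 lower, where 35.5% of all features were lower. The 5 became 7 with DESeq2's size factors and 2 under each of the other 3 scalings.

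Neighbouring genes were called in both directions. Next to the 10 lncRNAs called higher, 5 of 20 neighbours were called higher and 8 lower. Next to the 30 called lower, 13 of 60 neighbours were higher and 27 lower, and next to the 48 not called, 23 of 96 were higher and 48 lower. Of these neighbours 2, 12 and 11, in the same order, were not tested. Over all features tested, 49.7% were higher and 35.5% lower. Of protein-coding genes, which lie next to 69 of the 89 lncRNAs, 395 of 5008 tested were higher and 3625 lower in the same fit. Spearman's rho between the level of an lncRNA and that of a neighbour was 0.05 to 0.13 over 89 lncRNAs, on either side and in either fraction.

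Motifs were searched in the genome sequence of each lncRNA. AATAAA, on the transcribed strand in the window from 100 bases before to 50 after the annotated 3′ end, was found for 27 of 89 lncRNAs (30.3%), against 29.9% of all features and 28.7% of all annotated lncRNAs. The 27 had a median log2 fold change of -1.04 and the other 61 tested one of -0.57. Windows of some lncRNAs at both ends of the range are shown as examples, and whether this hexamer goes with the ratio was not tested. SPNCRNA.4992 (chrII:1046749-1046898) and SPNCRNA.2467 (chrI:1077435-1077584), both higher in poly(A)+ RNA, had none. SPNCRNA.388 (chrII:2117068-2117217), also higher, had 2, and so did SPNCRNA.7715 (chrIII:2336096-2336245) and SPNCRNA.3583 (chrI:3548295-3548444), which were lower. Those of SPNCRNA.388 and SPNCRNA.3583 lie before the annotated 3′ end, and both of SPNCRNA.7715 lie after it, outside the annotated transcript. The windows of SPNCRNA.7715 and SPNCRNA.3583 are on the minus strand and the others on the plus strand. AATAAA is in capitals.
SPNCRNA.4992: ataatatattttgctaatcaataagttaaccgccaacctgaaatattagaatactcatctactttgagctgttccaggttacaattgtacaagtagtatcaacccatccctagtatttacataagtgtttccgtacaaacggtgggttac
SPNCRNA.2467: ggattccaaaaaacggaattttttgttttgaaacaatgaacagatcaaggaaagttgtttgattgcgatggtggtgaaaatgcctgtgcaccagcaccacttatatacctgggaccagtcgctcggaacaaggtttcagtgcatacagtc
SPNCRNA.388: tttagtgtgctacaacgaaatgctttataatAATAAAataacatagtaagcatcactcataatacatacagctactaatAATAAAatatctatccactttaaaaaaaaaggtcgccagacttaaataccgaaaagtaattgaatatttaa
SPNCRNA.7715: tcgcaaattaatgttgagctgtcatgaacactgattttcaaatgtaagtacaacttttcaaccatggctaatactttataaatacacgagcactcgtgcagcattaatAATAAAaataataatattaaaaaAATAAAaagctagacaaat
SPNCRNA.3583: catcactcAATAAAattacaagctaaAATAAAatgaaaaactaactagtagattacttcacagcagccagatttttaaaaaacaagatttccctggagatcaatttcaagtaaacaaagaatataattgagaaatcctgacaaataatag

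TNAAAC, on the transcribed strand of the whole interval, was present in 63 of 89 lncRNAs (70.8%), against 69.7% of all annotated lncRNAs and 90.7% of protein-coding genes. The median number of copies per kilobase was 1.91 in the 89, against 1.73 in all annotated lncRNAs and 1.65 in protein-coding genes, which are longer (median 1773 nucleotides). The 63 had a median log2 fold change of -0.60 and the 25 tested without it one of -0.70. TTTTT in the last 50 bases to 20 after the 3′ end was found for 19 (21.3%), against 21.1% of all annotated lncRNAs, 33.7% of protein-coding genes and 27.4% of all features. TGATGA followed by CTGA within 300 bases, which can occur without a snoRNA, was found in 13 (14.6%), against 14.5% of all annotated lncRNAs, 50.2% of protein-coding genes and 28.8% of all features. These matches say only that the letters are in the interval.

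For 6 of the lncRNAs, at least 50 bases matched another place in the genome at 90% identity or more, so that reads could be shared with other copies. They were SPNCRNA.4080, SPNCRNA.6763, SPNCRNA.5512, SPNCRNA.5277, SPNCRNA.1506 and SPNCRNA.963, and their counts are uncertain. SPNCRNA.5277 is annotated as centromeric. Without these 6, a choice made after seeing the data, 10 lncRNAs were higher and 27 lower, and the median was still -0.63.

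The threshold on total RNA left out lncRNAs that were plentiful after oligo(dT) selection. Of those below it, 89 had 10 or more counts in both poly(A)+ libraries. The highest of them in RPKM, SPNCRNA.5104, had 1445 and 2392 counts in poly(A)+ RNA against 4 and 6 in total RNA. Counts were 0 in all 4 libraries for 67 of them.

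Most protein-coding genes were called lower in poly(A)+ RNA (3625 of 5008 tested, with 395 higher). Among 14 genes for nuclear RNA decay and polyadenylation factors, the median log2 fold change was -1.21, or -0.28 once the protein-coding median is subtracted. Of these 14, 13 were likewise lower in poly(A)+ RNA and 1 higher. TMM factors from protein-coding genes changed this to 5 lower and 2 higher. *mmi1*, whose product binds UNAAAC, had 869 and 1615 counts in poly(A)+ RNA against 4317 and 4245 in total RNA (-2.48 ± 0.19). The gene called higher was *pcf11*, which codes for a 3′ end processing factor (1.49 ± 0.13). All but 1 of these genes overlap other features.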

How the data were processed

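Counts per feature were analysed for 2 poly(A)+ and 2 total RNA libraries of vegetative *S. pombe* cells. The authors trimmed the reads with cutadapt 1.15 or fastp 0.23.1, aligned them with STAR 2.6.1d, counted them with featureCounts (Subread 2.0.6) and deposited raw counts for 12684 features. The genome build, annotation and strand setting are not given in the sources used here. The header of the deposited tables stands 1 place to the right of the values, so that fields were taken by position. Other columns of the authors' tables hold coordinates and lengths.

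Poly(A)+ was set against total RNA by edgeR 4.0.16 (R 4.3.3), with TMM, filterByExpr, glmQLFit, glmQLFTest and Benjamini-Hochberg adjustment over 11234 features. SE is the size of the log2 fold change divided by the square root of F. In simulated counts, edgeR recovered 200 of 200 genes changed by 2 on the log2 scale among 11111, with 9 false calls. All genes there had a common dispersion of 0.0376 and most were unchanged, whereas 85.3% of features were called in the data. The changed genes were also not those lowest in counts. The simulation therefore cannot speak to the scaling between the fractions or to lncRNAs with few counts. Sequence matches used BLAST+ 2.17.0, and permutation and Wilson intervals scipy 1.17.1. Names come from RefSeq ASM294v3, which matched 99.4% of features.

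The lncRNAs, the gene lists and the tests were chosen with earlier results of these data known. Named are lncRNAs with a name besides their identifier; the 6 highest in each fraction by RPKM; the 6 highest and 6 lowest log2 fold changes with adjusted p under 0.05, at least 100 counts and fractions that do not overlap; and 3 on each side of the threshold. Others were named after their values were seen. *mcp5*, on the list of meiotic genes, was not matched by name. Alternatives were 4 other scalings, DESeq2 1.42.0, a replicate block, 2 filters, each library left out, 3 other membership rules and a fold threshold.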

Additional observations from a re-analysis of the deposited data

How the results depend on the processing

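Wherever the threshold on total RNA was kept, the lncRNAs had a positive median relative to the median protein-coding gene, from 0.18 to 0.48. Their median log2 fold change itself depended on the scaling. It was -1.13 with DESeq2's size factors (6 higher) and -1.13 with DESeq2 (5 higher), but 0.34 with TMM factors from protein-coding genes (17 higher, 14 lower), 0.12 with library totals alone (14 lower) and 0.087 in the fit of features that overlap nothing (14 lower). A mean of at least 50 counts left 35 lncRNAs, with 13 lower, a median of -0.41 and 0.48 relative to protein-coding genes. Requiring 20 counts in total RNA left 4 higher. Admitting lncRNAs with 10 counts in both libraries of either fraction gave 72 higher, a median of 0.84 and 1.77 relative to protein-coding genes. That rule adds lncRNAs below the total RNA threshold that pass on poly(A)+ counts, so these values are in part fixed by it. At 300 or more nucleotides from every feature, 1 was higher and 5 lower. Leaving out single libraries gave 18 to 31 lower, medians of -0.76 to -0.59, relative medians of 0.18 to 0.33 and ratios of median RPKM, poly(A)+ over total, of 0.62 to 0.74. That ratio was 0.66 as reported and 1.13 with library totals alone, and the ratio of shares was 0.999 without SPNCRNA.2467 and SPNCRNA.942.

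Of 22 named lncRNAs, 12 kept direction and call throughout. Most of these were named for the highest or lowest log2 fold changes called in the main fit, which favours keeping the call. The direction turned under TMM factors from protein-coding genes, library totals alone and the fit without overlaps, in this order, for *prl59* (0.30, 0.077 and 0.010), *prl58* (0.40, 0.17 and 0.11), SPNCRNA.3711 (0.48, 0.30 and 0.20) and *prl20* (0.51, 0.31 and 0.23). SPNCRNA.3711 ranged from -3.01 to 0.39 with single libraries left out. For the scalings, the cause was not tested.

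The replicate numbers are only shared numbers (correlation of deviations -0.0175 over 11234 features). With a replicate block, 10 lncRNAs were higher and 25 lower, the median was -0.67, and of the named ones *prl24* and *prl58* lost their call. Where a library is left out, its fraction's single library is assumed to vary like the other fraction, although the chi-square of counts per degree of freedom over the lncRNAs was 151 between poly(A)+ replicates (11.2 without SPNCRNA.2467) and 2.57 between total RNA replicates (2.6 without it). Low counts limit what could be called.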
